A study of Mus musculus with 6 samples.

Results

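Class II myosin heavy chains are the motor subunits of the 2-headed myosins that form filaments. The members described here were taken by gene name and comprise Myh1, Myh2, Myh3, Myh4, Myh6, Myh7, Myh8, Myh9, Myh10 and Myh11, 10 of the 21959 genes in the deposited table. All 10 names were found, each in 1 row. RNA was measured in 6 libraries of wild-type mouse cells that the labels give as HL-1, an atrial cardiomyocyte line. All cells went through oxygen-glucose deprivation and reoxygenation (OGD/R), which stands for ischemia and reperfusion in a dish, here with 4 h of hypoxia without glucose and 24 h of reoxygenation. The OGD/R group holds 3 libraries, and the phillyrin group holds 3 libraries of cells that also received 50 μg/mL phillyrin, a lignan glucoside of Forsythia, for 8 h before and 16 h with OGD/R. The labels name no vehicle and no untreated cells, so the comparison asks which heavy chain transcripts differ between OGD/R with and without phillyrin. Nothing in them says that replicate libraries come from separate cultures, and every p-value below rests on the spread among these libraries, which may be technical. In bulk RNA, fewer cells of a type and less RNA per cell cannot be told apart.

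Each heavy chain has a head that binds actin and splits ATP, and a coiled-coil tail that assembles into a thick filament. Sarcomeric forms build the fixed filaments of striated muscle, with Myh6 and Myh7 as the cardiac alpha and beta chains, Myh3 as the embryonic and Myh8 as the perinatal skeletal chain, and Myh2, Myh1 and Myh4 as the fast adult chains of fiber types IIa, IIx and IIb. Non-muscle myosins IIA (Myh9) and IIB (Myh10) form small filaments that can be taken apart again, in stress fibers, the cell cortex and the cleavage furrow of dividing cells. Myh11 is the smooth muscle chain. Light chains bind the neck of each head, and in the non-muscle and smooth muscle forms their phosphorylation switches the motor on.

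The sequences below show how alike the members are and so how well a read can be assigned to one of them. Each is a stretch of 60 bases of the coding sequence, from GENCODE M21 transcripts (build GRCm38), around the 24 bases that encode the phosphate-binding loop of the ATP site, which are in capitals.
Myh3: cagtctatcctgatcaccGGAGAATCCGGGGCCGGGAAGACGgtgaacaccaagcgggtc
Myh2: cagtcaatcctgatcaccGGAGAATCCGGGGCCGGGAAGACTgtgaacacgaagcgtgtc
Myh1: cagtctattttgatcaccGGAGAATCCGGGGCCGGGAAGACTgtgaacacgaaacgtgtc
Myh4: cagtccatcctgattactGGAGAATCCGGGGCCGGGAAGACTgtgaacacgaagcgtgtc
Myh8: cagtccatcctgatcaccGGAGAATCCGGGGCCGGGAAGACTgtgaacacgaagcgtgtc
Myh6: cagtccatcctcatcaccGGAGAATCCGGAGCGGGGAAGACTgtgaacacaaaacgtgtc
Myh7: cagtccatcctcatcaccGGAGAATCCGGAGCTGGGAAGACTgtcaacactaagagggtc
Myh11: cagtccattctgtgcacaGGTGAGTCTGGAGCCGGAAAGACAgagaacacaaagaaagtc
Myh10: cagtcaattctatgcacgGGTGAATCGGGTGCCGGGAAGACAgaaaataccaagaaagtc
Myh9: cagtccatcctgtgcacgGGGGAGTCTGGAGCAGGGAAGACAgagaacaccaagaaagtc
Between sarcomeric chains 49 to 59 of the 60 bases were identical, among Myh9, Myh10 and Myh11 50 to 54, and between these 2 sets 41 to 46. Over the whole coding sequence, identity was 76.7% to 91.7% among the 7 sarcomeric chains and 57.6% to 60.5% between a sarcomeric chain and Myh9, Myh10 or Myh11. Myh9 and Myh10 shared 74.4%. Of all stretches of 150 bases, the read length, 0% of those in the Myh9, Myh10 and Myh11 transcripts occurred in a transcript of another gene. For Myh1 the share was 6.22%, with Myh2, Myh4, Myh8 and a further transcript, Myhas, and for Myh7 it was 6.496%, with Myh6 among others. Counts of Myh9, Myh10 and Myh11 can therefore be read gene by gene, while counts of the skeletal chains may in part be split among copies, since the treatment of reads with several placements is not given in the sources used here.

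**Figure D1:**
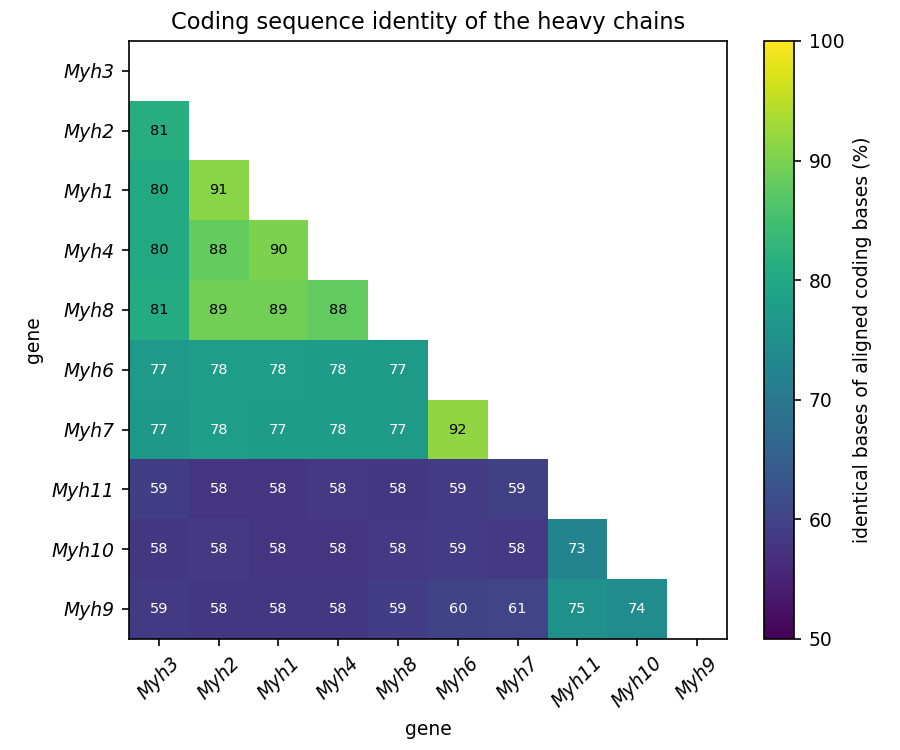
Identity of the coding sequences of the 10 heavy chains, in percent of aligned bases, each cell a pair of genes. The fast and perinatal skeletal chains (87.95% to 91.1%) and the cardiac pair Myh6 and Myh7 (91.7%) are the closest, and sarcomeric chains share 57.6% to 60.5% with Myh9, Myh10 and Myh11.

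The heavy chain transcripts of these cells were almost all non-muscle. Non-muscle chains made up 99.95% ± 0.00327 of the summed FPKM of the 10 members in OGD/R and 99.97% ± 0.00971 with phillyrin (SD, n = 3 each). FPKM is the count scaled by gene length and library total, and levels of different genes are compared on this scale only. Sarcomeric chains made up 0.0548% ± 0.00327 and 0.0221% ± 0.0104, and Myh11 0% and 0.00990% ± 0.00251 (SD, n = 3 each). Of the 10 members, 2 had enough counts to be tested, 5 had between 2 and 34 counts over all 6 libraries, and 3 had 0. Among all 21959 genes, 6437 had 0.

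**Figure D2:**
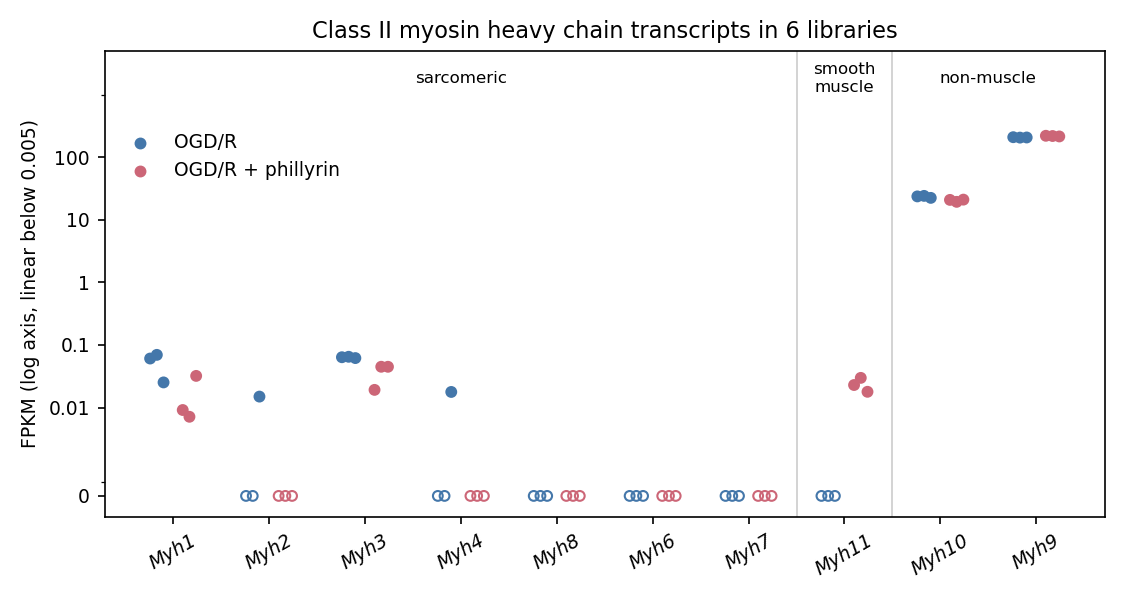
FPKM of each heavy chain in each library, on a log axis that is linear below 0.005, with open circles for libraries at 0. Myh9 lies between 205 and 219, Myh10 between 19.3 and 24.0, and every other member below 0.1 in every library.

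The cardiac chains were not detected. Myh6 (ENSMUSG00000040752, chromosome 14, 55179378 to 55204384, minus strand) and Myh7 (ENSMUSG00000053093, chromosome 14, 55208141 to 55232083, minus strand) lie 3756 bases apart, and each had 0 counts in all 6 libraries. Gene positions are as deposited, on build GRCm39 according to the submitters' processing notes. The 3 counts that a count of 0 allows are 0.0269 CPM over the 111513800 counts of all libraries, or 0.00400 FPKM for Myh6 and 0.00312 FPKM for Myh7. Pooled over the same counts Myh9 stood at 211 FPKM, at least 52854-fold higher than Myh6 and at least 67706-fold higher than Myh7. Such limits cover counting error only, as reads copied by PCR are not independent molecules. Gm17428, a short gene opposite Myh7, also had 0 counts, and no other member overlapped a gene of the table. Of 12 cardiomyocyte markers 10 stayed below 0.5 CPM in every library, among them Actc1 (1 count in all), Myl7 (1 count in all) and Mybpc3 and Actn2 (0 counts). Tnnt2, cardiac troponin T, which immature skeletal muscle also makes, stood at 116 ± 1.79 and 153 ± 9.34 CPM (SD, n = 3 each). Myl4, a light chain gene of the same list, was the other marker above 0.5 CPM. Its counts summed to 80 under OGD/R alone and 102 under phillyrin. Mean CPM was 1.38 ± 0.179 and 1.90 ± 0.508 (SD, n = 3 each). Myl4 was not called (edgeR adjusted p = 0.229). The label atrial is thus not borne out by the defining heavy chain, though Myl4 was present at a low level. The cells are called by their label only.

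The skeletal chains lie in tandem on chromosome 11 between 66969126 and 67199460, a span of 230335 bases, in the order Myh3, Myh2, Myh1, Myh4 and Myh8. Together they gave 62 counts. Myh3 (ENSMUSG00000020908, 66969126 to 66993117, plus strand), the embryonic chain, had the most, with 7, 8 and 7 counts under OGD/R alone and 2, 6 and 4 under phillyrin. Every phillyrin library was below every OGD/R library, as was so in log2 CPM for 21.6% of the tested genes. The ratio of phillyrin to OGD/R per scaled count was 0.595, with a 95% counting interval of 0.268 to 1.26 (exact, from 22 and 12 counts), which includes no change. Counting intervals here and below rest on counts pooled per group and leave out the spread between libraries. Myh1 (ENSMUSG00000056328, 67090878 to 67115401, plus strand), the IIx chain, had 7, 9 and 3 counts in OGD/R and 1, 1 and 3 with phillyrin. Its groups met at 3 counts, and on the CPM scale they overlapped, with a ratio of 0.287 (95% counting interval 0.0838 to 0.795, from 19 and 5 counts). Myh2, the IIa chain, and Myh4, the IIb chain, had 2 counts each, all in OGD/R replicate 3. Myh8, the perinatal chain, had 0 in all libraries.

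None of the low members could be separated by the exact test over samples. Two-sided exact permutation p-values on CPM were 0.1 for Myh3, 0.2 for Myh1 and 1 for Myh2 and Myh4, or 0.25, 0.333 and 1 after Benjamini-Hochberg adjustment over the 5 low members, and 0.1 is the smallest p that 3 libraries against 3 can give. Fitted without a low-count filter over 15522 genes, edgeR's adjusted p was 0.535 for Myh3, 0.175 for Myh1 and 0.459 for Myh2 and for Myh4. The 5 chains were also summed to 1 unit, because reads could be split among these copies. The sums were 14, 17 and 14 counts in OGD/R and 3, 7 and 7 with phillyrin. These groups do not overlap, as was so in log2 CPM for 43.1% of all tested genes. The ratio of the sums was 0.412, with a 95% counting interval of 0.221 to 0.735. That interval covers counting error only and is not a test between the groups. No p is given for a sum over genes chosen as a family.

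**Figure D3:**
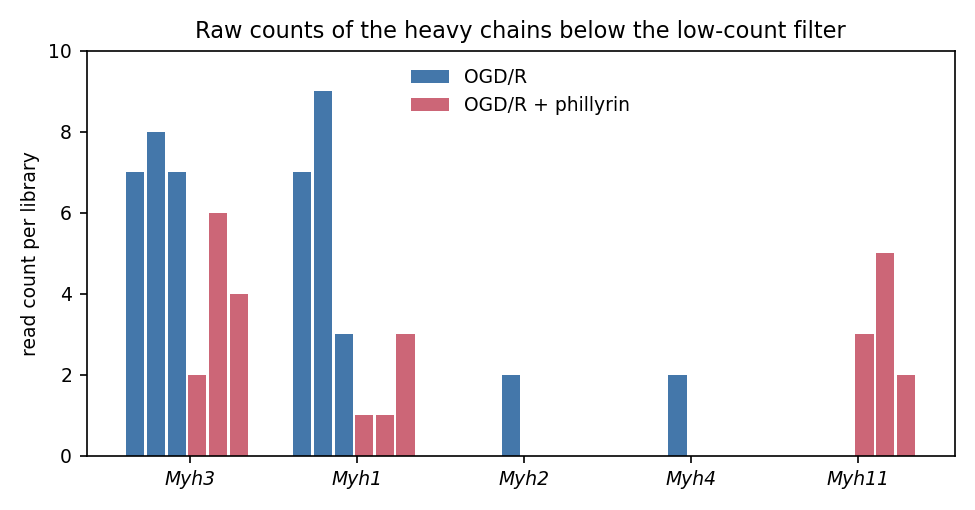
Raw read counts of the 5 heavy chains that had counts but fell below the low-count filter, 1 bar per library, OGD/R replicates 1 to 3 and then phillyrin replicates 1 to 3. Myh3 and Myh1 reach at most 8 and 9 counts, and Myh11 has 2 to 5 counts in the phillyrin libraries and 0 in OGD/R.

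Other genes of the skeletal lineage were present in the same libraries. Of 15 skeletal myoblast and myotube markers 3 stayed below 0.5 CPM in every library. Myod1, which commits cells to the skeletal lineage, rose from 83.2 ± 2.18 CPM to 97.2 ± 4.09 CPM, and Myf5, its relative, fell from 64.2 ± 3.65 CPM to 52.5 ± 2.76 CPM (SD, n = 3 per group, edgeR adjusted p = 0.000455 and 0.000197). Cdh15, M-cadherin, fell from 132 ± 4.23 to 102 ± 4.84 CPM, and Chrna1, a subunit of the muscle acetylcholine receptor, from 305 ± 5.39 to 271 ± 11.04 CPM (SD, n = 3 per group, edgeR adjusted p = 6.88e-08 and 0.000479). Des, desmin, had 676 ± 8.18 and 695 ± 19.8 CPM (SD, n = 3 per group) and was not called (edgeR adjusted p = 0.377). Levels across the list were uneven, since Ckm, muscle creatine kinase, had 0 counts, and Myog, myogenin, 20 in OGD/R and 25 with phillyrin. Among 11 markers tested 1 rose and 4 fell, where 31.7% of all tested genes were called. The markers had a median log2 fold change of -0.17, against -0.01 over all tested genes. Mymk, a membrane protein needed for myoblast fusion, fell from 1.38 ± 0.166 to 0.445 ± 0.309 CPM (SD, n = 3 each, edgeR adjusted p = 0.00393). Summed CPM of the list ran from 1259 to 1281 in the OGD/R group and from 1194 to 1254 in the phillyrin group. Its part in the lower skeletal heavy chain counts was not tested.

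Other proteins of the sarcomeric thick filament were low as well. Of 12 thick filament and M band genes 7 stayed below 0.5 CPM in every library, and 4 had 0 counts, among them Mybpc1 and Mybpc3, the slow and cardiac myosin binding proteins C. Of 4 tested, 0 rose and 1 fell, where 31.7% of all tested genes were called. The 4 had a median log2 fold change of 0.13, against -0.01 over all tested genes. The gene that fell was Obsl1, an obscurin relative, from 24.2 ± 0.671 to 19.5 ± 1.62 CPM (SD, n = 3 each, edgeR adjusted p = 0.00593). Without phillyrin replicate 1, 2 of them fell. Ttn, titin, the long spring of the sarcomere, had 74.9 ± 1.14 CPM under OGD/R alone and 69.2 ± 12.8 CPM under phillyrin (SD, n = 3 each), a difference past the threshold only when phillyrin replicate 1 was left out (edgeR adjusted p = 0.000665, against 0.503 with all libraries). Per length Ttn stood at 0.648 FPKM in OGD/R, above every sarcomeric heavy chain in every library.

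The smooth muscle chain Myh11 (ENSMUSG00000018830, chromosome 16, 14012399 to 14109236, minus strand) had 0 counts in each OGD/R library and 3, 5 and 2 counts in the phillyrin libraries. The groups do not overlap, but both levels are near the limit of detection, with 0.0235 ± 0.00598 FPKM (SD, n = 3) with phillyrin. In log2 CPM, every phillyrin library was above every OGD/R library for 21.5% of the tested genes. Against the limit of 3 counts over the OGD/R group, Myh11 was at least 3.64-fold higher with phillyrin, taking the 10 phillyrin counts without their own error. The exact 95% counting interval of the ratio, from 0 and 10 counts, starts lower, at 2.45. The two-sided exact permutation p was 0.1 (0.25 adjusted over the 5 low members). Myh11 did not pass the low-count filter, and edgeR without that filter gave an adjusted p of 0.0283. Of 8 smooth muscle markers 5 were tested, of which Acta2 and Smtn rose and Synpo2 fell. Among all tested genes 16.0% were called higher and 15.6% lower. Smtn lost its call in the absence of any OGD/R library or of phillyrin replicate 2, and Synpo2 in the absence of OGD/R replicate 1 or 3 or of phillyrin replicate 3 (edgeR adjusted p 0.0579 to 0.279). Acta2, smooth muscle actin, rose from 392 ± 12.4 to 579 ± 29.5 CPM (SD, n = 3 per group), a log2 fold change of 0.56 (standard error 0.04, edgeR adjusted p = 6.32e-15). Cnn1, calponin, had 12 counts in OGD/R and 30 with phillyrin, and Tagln, transgelin, 3 and 13, of which 10 were in phillyrin replicate 1. Summed CPM of the list ran from 588 to 613 in the OGD/R group and from 753 to 806 in the phillyrin group, and its part in the Myh11 counts was not tested. Of 6 fibroblast markers 4 were tested, of which 2 fell, Col3a1, a collagen, and Pdgfra, a growth factor receptor, by 0.34 and 0.74 on the log2 scale (SE 0.04 and 0.10). Summed CPM of that list ran from 1654 to 1699 in the OGD/R group and from 1285 to 1425 in the phillyrin group, and its part in the heavy chain results was not tested either.

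The 2 non-muscle chains carried the tested differences, and these were small and in opposite directions. Myh9 (ENSMUSG00000022443, chromosome 15, 77644787 to 77726375, minus strand) was the 15th most abundant of the 11658 tested genes by log2 CPM. It had 2644, 2611 and 2627 CPM under OGD/R alone and 2861, 2839 and 2840 CPM under phillyrin. Every phillyrin library lay above every OGD/R library, as the plot of the non-muscle chains shows, and the groups were 2627 ± 16.6 and 2846 ± 12.4 CPM (SD, n = 3 each). The log2 fold change was 0.12 (SE 0.03, 95% interval 0.05 to 0.18, edgeR adjusted p = 0.00371), a fold of 1.08. Groups did not overlap for 43.1% of all tested genes. The call was lost with library totals as the only scaling (log2 fold change 0.07, edgeR adjusted p = 0.0566), and adjusted p-values over the 13 alternatives ran from 8.40e-05 to 0.0566.

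Myh10 (ENSMUSG00000020900, chromosome 11, 68582385 to 68707458, plus strand), 1382924 bases beyond the skeletal cluster, had 242, 248 and 230 CPM under OGD/R alone and 219, 204 and 225 CPM under phillyrin. Again the groups did not overlap, here with phillyrin lower, at 240 ± 8.79 and 216 ± 10.7 CPM (SD, n = 3 each). The log2 fold change was -0.16 (SE 0.04, 95% interval -0.24 to -0.07, edgeR adjusted p = 0.00263), a fold of 0.898. Myh10 passed the threshold in all 13 alternatives, with adjusted p-values from 0.000167 to 0.0483. It came closest to losing it without phillyrin replicate 2, the lowest library, where the log2 fold change was -0.11.

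Both tested members were called, 1 higher and 1 lower, where 31.7% of the 11658 tested genes were called, 16.0% higher and 15.6% lower. Scaled by library totals only, 1313 genes were higher and 2455 lower in place of 1871 and 1823. Both changes were smaller than most. Of the 1871 genes called higher 1764 rose more than Myh9, and of the 1823 called lower 1667 fell more than Myh10. The ratio of the 2 chains does not depend on how libraries are scaled. Myh9 exceeded Myh10 per length by 8.83-, 8.53- and 9.22-fold in the OGD/R libraries and by 10.6-, 11.3- and 10.2-fold with phillyrin, or 8.86 ± 0.348 and 10.7 ± 0.527 (SD, n = 3 each). The lowest phillyrin ratio was above the highest OGD/R ratio. As a share of the summed FPKM of all 10 members, Myh10 went from 10.1% ± 0.357 to 8.57% ± 0.382 (SD, n = 3 each). The summed FPKM of the 10 members was 230 ± 1.81 in OGD/R and 237 ± 2.55 with phillyrin (SD, n = 3 each).

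**Figure D4:**
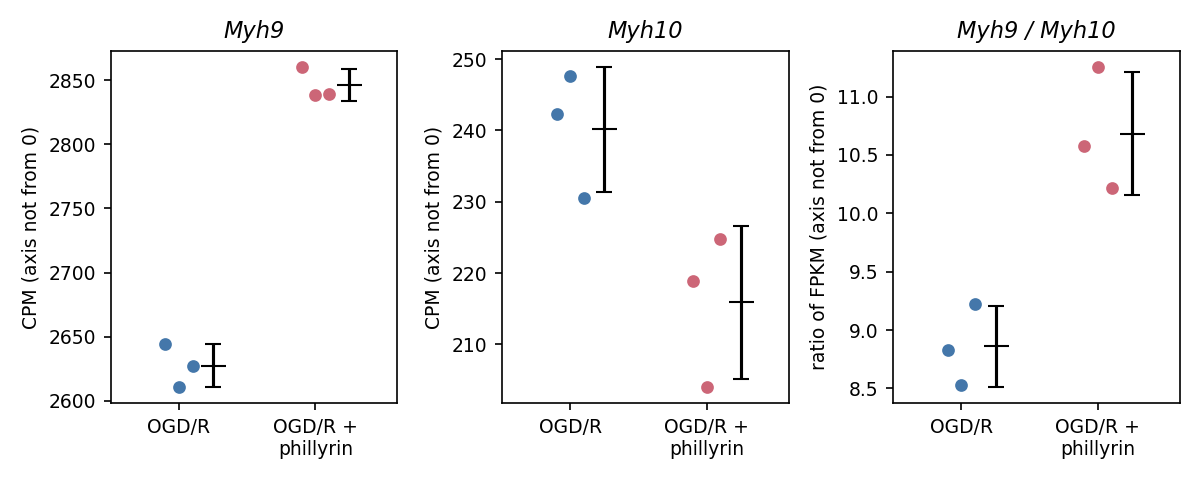
Myh9 and Myh10 in CPM and their ratio in FPKM, 1 point per library, with the mean and SD of each group in black; the axes do not start at 0. Phillyrin libraries lie above OGD/R libraries for Myh9 (2839 to 2861 against 2611 to 2644 CPM) and for the ratio, and below them for Myh10.

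The upstream sequence of Myh9 is shown beside that of Myh4, the fast chain whose promoter held the most muscle motifs. Each is the 250 bases before the start of the gene in RefSeq (build GRCm38.p6), written in the direction of transcription, and 0 of these bases lie in an exon of the same gene in GENCODE M21. For Myh10 178 of the 250 bases do, so its sequence is not printed. Bases 6 to 30 after the start were found in a GENCODE M21 transcript of the same gene for Myh9 but not for Myh4. The Myh4 start thus rests on RefSeq alone. Capitals mark matches on either strand to the E-box, CANNTG, which MYOD1 and related factors bind, to the CArG box of serum response factor and to the MEF2 site.
Myh9 (chr15:77842176-77842425, minus strand): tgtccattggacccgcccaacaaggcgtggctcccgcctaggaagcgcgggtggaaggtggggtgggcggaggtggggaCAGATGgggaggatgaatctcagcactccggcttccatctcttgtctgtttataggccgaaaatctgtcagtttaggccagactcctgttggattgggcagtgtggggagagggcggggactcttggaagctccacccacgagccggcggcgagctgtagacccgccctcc
Myh4 (chr11:67237562-67237811, plus strand): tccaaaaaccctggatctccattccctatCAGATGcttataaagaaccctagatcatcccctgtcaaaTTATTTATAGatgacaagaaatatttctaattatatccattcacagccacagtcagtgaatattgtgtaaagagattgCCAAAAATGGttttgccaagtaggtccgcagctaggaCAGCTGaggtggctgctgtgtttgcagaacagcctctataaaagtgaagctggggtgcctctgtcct
Of the 9 members with a RefSeq promoter (10 promoters), 8 promoters held an E-box, where 66.2% of 32851 promoters did. The MEF2 site, in 2.92% of all promoters, was found in Myh1, Myh4 and Myh8, each time as TTATTTATAG, and the CArG box, in 1.47%, in Myh4 only. Myh9 and Myh10 held E-boxes and no match to the other motifs in this window. In the 2 printed sequences no matches overlap each other. A match is a run of letters and not a measured site.

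Genes with the most similar pattern over the 6 libraries were found by the root mean square difference of centred log2 CPM. Nearest to Myh9 were Sh3glb1, Clock, Ccng1 and Rap2c, at 0.0084 to 0.011 log2 units, and nearest to Myh10 were Vcpkmt, Acad9, Slc20a1 and Srsf2, at 0.016 to 0.024. For Myh3, with at most 8 counts in a library, they were Nipa1, Procr, Porcn and Col17a1, at 0.13 to 0.14. These are descriptions of 6 libraries in 2 groups.

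The class II heavy chains outside the members were as low as the sarcomeric ones. Myh14, non-muscle myosin IIC, had 8, 3 and 2 counts in OGD/R and 2, 2 and 3 with phillyrin. Myh7b had 1 count in all, and Myh13 and Myh15 had 0. None was tested. Myh16 was not analysed here.

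The most abundant light chain matched the non-muscle heavy chains in kind. Myl6, the essential light chain of non-muscle and smooth muscle myosin, stood at 247 FPKM in OGD/R, with Myh9 at 206 FPKM. These values rest on deposited lengths of 3187 bases for Myl6 and 12928 for Myh9. The Myl6 transcript with the longest reading frame held only 543 stretches of 150 bases, and the Myh9 transcript has 7433 bases. The distance between the 2 levels thus depends on the length used. Of the Myl6 stretches 12.34% also occur in Gm10080, Gm5526 or Gm8894. The cardiac light chains Myl2 and Myl3 had 0 counts. Other sarcomeric light chains were low but present, and 2 of them stood above every sarcomeric heavy chain. Mylpf, the fast skeletal regulatory chain, had 1.09 FPKM in OGD/R and 1.36 FPKM with phillyrin. Myl4 had 0.301 and 0.404 FPKM, and Myl1 had 19 counts in all. Of 7 light chains tested 1 rose and 1 fell, where 31.7% of all tested genes were called. The 7 had a median log2 fold change of 0.17, against -0.01 over all tested genes. Myl12a, a non-muscle regulatory light chain, rose from 92.3 ± 8.41 to 104 ± 3.14 CPM, and Myl9, the smooth muscle type regulatory chain, fell from 24.4 ± 1.73 to 20.2 ± 1.54 CPM (SD, n = 3 per group, edgeR adjusted p = 0.0108 and 0.0127). Neither call was firm. Myl12a lost its call when replicate 2 of OGD/R (edgeR adjusted p = 0.101), replicate 3 of OGD/R (0.1097) or replicate 2 of phillyrin (0.0555) was left out, and with library totals only (0.0676). Myl9 lost its call when replicate 1 of OGD/R (edgeR adjusted p = 0.0595), replicate 2 of OGD/R (0.0754) or replicate 1 of phillyrin (0.0738) was left out. Of the read-length stretches of Myl12a 38.01% also occur in a gene with the symbol Myl12b. That gene has a different gene ID from the Myl12b counted here. How reads were divided between it and Myl12a is not known. Myl6 itself had 775 ± 26.4 CPM under OGD/R alone and 820 ± 18.7 CPM under phillyrin (SD, n = 3 per group) and was not called (edgeR adjusted p = 0.0598). In 5 of 13 alternatives it was, with adjusted p-values of 0.0180 to 0.0442 there. Myl6b, a related essential light chain, had 7.14 ± 1.23 and 8.86 ± 0.553 CPM (SD, n = 3 per group) and was not called (edgeR adjusted p = 0.0803).

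Partners of the non-muscle filaments moved more than the heavy chains. Of 16 partners 8 rose and 5 fell (3 without OGD/R replicate 1), where 16.0% of all tested genes were called higher and 15.6% lower. The 16 had a median log2 fold change of 0.07, against -0.01 over all tested genes. The 4 largest increases were genes of the cleavage furrow, where Myh9 and Myh10 act: Ect2, a regulator of furrow formation, rose from 166 ± 3.41 to 254 ± 6.40 CPM, and Anln, anillin, from 556 ± 6.38 to 794 ± 13.2 CPM (SD, n = 3 per group, edgeR adjusted p = 1.74e-15 and 2.72e-15). Racgap1 and Kif23, which form the centralspindlin complex, rose by 0.44 and 0.38 on the log2 scale (SE 0.03 and 0.04). These 4 are mitotic genes, and their rise in these libraries was known when the list was drawn up. Partners of stress fibers went both ways. Actn1, an actin crosslinker, rose from 469 ± 2.30 to 528 ± 7.22 CPM, while its relative Actn4 fell from 476 ± 3.11 to 415 ± 12.6 CPM (SD, n = 3 per group, edgeR adjusted p = 9.14e-05 and 1.95e-05). Cald1, caldesmon, which restrains the motor on actin, rose from 1081 ± 11.6 to 1261 ± 56.7 CPM (SD, n = 3 each, edgeR adjusted p = 2.25e-06). S100a4, a calcium-binding protein that loosens Myh9 filaments, had 37, 37 and 41 counts in OGD/R and 7, 23 and 8 with phillyrin. It fell by 1.48 on the log2 scale (SE 0.34, edgeR adjusted p = 0.000881).

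**Figure D5:**
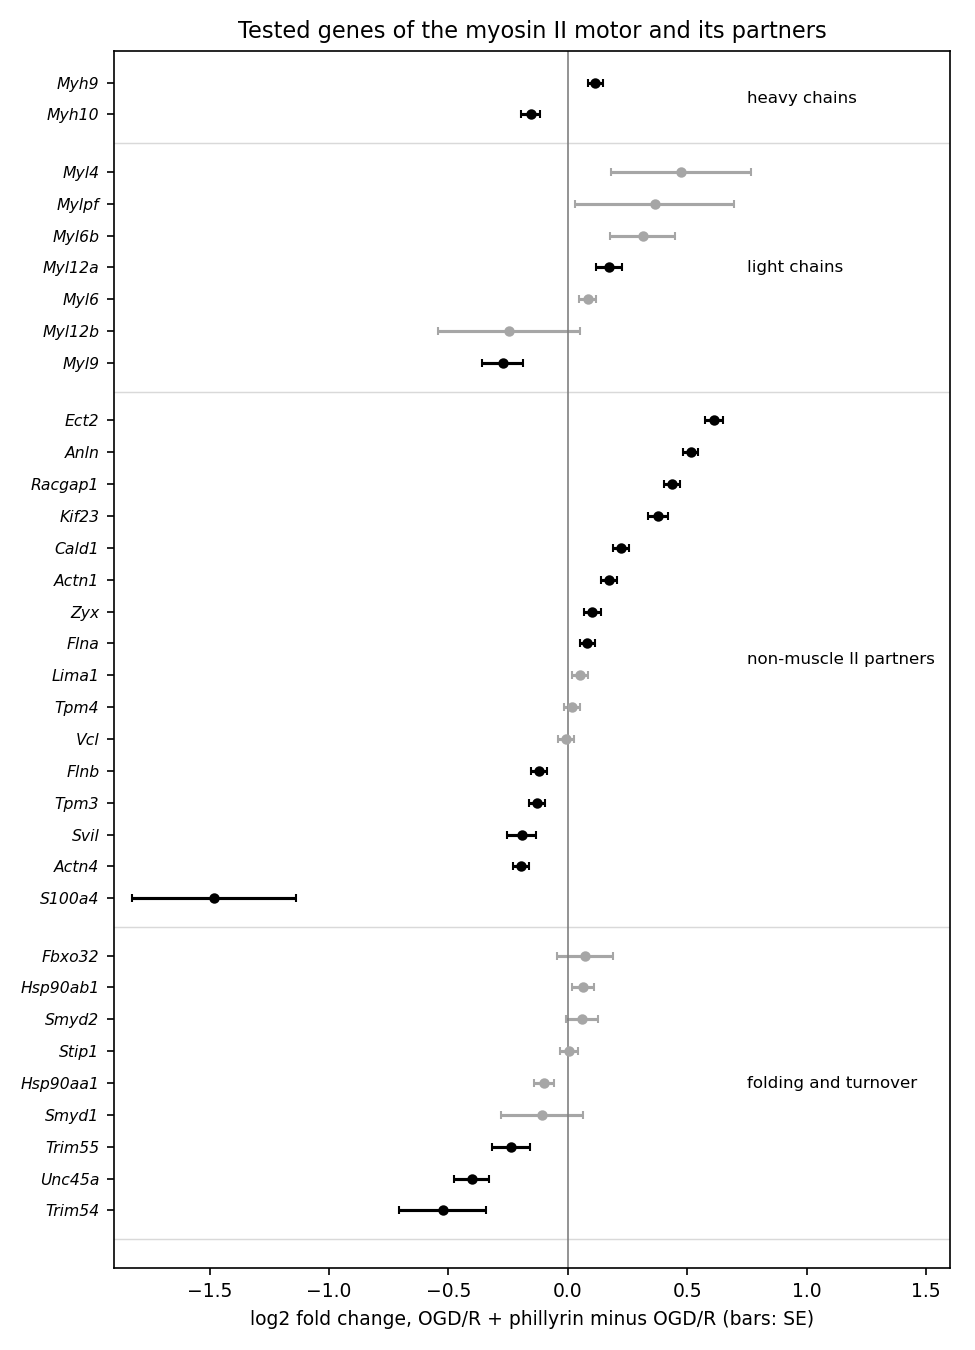
Log2 fold changes (phillyrin minus OGD/R) with SE for Myh9, Myh10 and the tested light chains, partners and folding genes; black points passed the edgeR threshold and grey points did not. Myh9 and Myh10 sit at 0.12 and -0.16, Ect2 at 0.61 is the highest and S100a4 at -1.48 the lowest.

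Of 9 tested genes of myosin folding and turnover 0 rose and 3 fell, where 31.7% of all tested genes were called. The 9 had a median log2 fold change of -0.10 (all tested genes -0.01). Unc45a, the chaperone of non-muscle myosin heads, fell from 34.8 ± 0.102 to 26.4 ± 1.83 CPM (SD, n = 3 per group), a log2 fold change of -0.40 (standard error 0.07, edgeR adjusted p = 3.86e-05), while Unc45b, its striated muscle counterpart, had 0 counts. Trim55 and Trim54, ubiquitin ligases of the sarcomere, fell by 0.24 and 0.52 on the log2 scale (SE 0.08 and 0.18). Of the 3 only Unc45a was called without phillyrin replicate 2. Trim55 also lost its call when replicate 1 or 2 of OGD/R or replicate 3 of phillyrin was left out (edgeR adjusted p = 0.0718, 0.0550 and 0.0658). For Trim54 the same held of replicate 3 of OGD/R (edgeR adjusted p = 0.116), and DESeq2 did not call it (adjusted p = 0.0521). With phillyrin replicate 1 left out, 1 gene of the list rose and 4 fell. Hsp90aa1, a chaperone that works with UNC45 proteins, had 1788 ± 65.9 CPM under OGD/R alone and 1669 ± 128 CPM under phillyrin (SD, n = 3 per group) and was not called (edgeR adjusted p = 0.0664). In 5 of 13 alternatives it was, with adjusted p-values of 0.000633 to 0.0311 there.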

How the data were processed

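RNA of 6 libraries was enriched for poly(A) and sequenced as paired reads of 150 bases, per the labels' protocols. The deposited table holds a read count and an FPKM per gene and library, per the file headers. The submitters' processing notes name Trimmomatic 0.39, HISAT2 2.2.1, featureCounts 2.0.3, DESeq2 1.34.0 and build GRCm39, with no role or setting. FPKM deposited by the authors equalled count over length and library total to 2.43e-07. Columns were assigned by sample title, as the description repeats a column name. Totals were 14761317 to 22123648 counts. Rows with a gene ID but no symbol (51, at most 0.00743% of counts) stayed in.

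Counts were filtered with filterByExpr (about 0.541 CPM), scaled by TMM and tested by edgeR 4.0.16 quasi-likelihood (robust, limma 3.58.1, R 4.3.3) with Benjamini-Hochberg adjustment over 11658 genes, threshold 0.05. The main fit has no block. CPM uses TMM-scaled totals, and log2 CPM a prior count of 2. SE is the log2 fold change over the root of F. The test was checked on simulated counts. Reads were counted with a strand setting not given in the sources used here. Coding sequences are the longest open reading frames of GENCODE M21 transcripts. Alternatives were RLE factors, library totals only, DESeq2 1.42.0, limma-voom, no filter, a minimum mean of 1 CPM, the replicate block and the omission of each library.

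Named genes are the members, other class II chains with a count, up to 4 genes with the smallest p per list and the nearest patterns. Further names were picked with their values in view. The members and lists were chosen with earlier results of these data known. The list of light chain kinases and phosphatase genes is not reported here.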

Additional observations from a re-analysis of the deposited data

How the results depend on the processing

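Myh10 kept its direction and its call in all 13 alternatives, and Myh9 kept its direction in 13 and its call in 12, the exception being library totals only (log2 fold change 0.0715, edgeR adjusted p = 0.0566). Leaving out each library gave log2 fold changes of 0.11 to 0.12 for Myh9 and -0.18 to -0.11 for Myh10. Library totals only left 0 members higher. Without a low-count filter 7 members were tested and 2 were higher, Myh9 and Myh11. The number of light chains that rose was 2 with RLE factors, limma-voom or no filter, 0 with library totals only, and 0 to 2 when a library was left out, and 0 to 1 then fell. When a library was left out, 1 to 2 thick filament genes fell, 0 to 1 folding genes rose and 1 to 4 fell, 3 to 5 partners fell, and 1 to 2 unconventional myosins rose. By counts with no length scaling the sarcomeric share was 0.0269% in OGD/R and 0.0107% with phillyrin, the non-muscle share 99.97% and 99.98%, and the Myh11 share 0.00592% with phillyrin. Summed, the skeletal chains passed the filter as 1 unit, where 0 of the 5 did alone. Scaling by protein length was not run, as no protein table was used here.

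No pairing by replicate number was seen over all tested genes. Deviations of same-numbered libraries correlated at 0.0028, 0.0056 and 0.0032 over 11658 genes, and those of differently numbered libraries at -0.0046 to 0.0013. A correlation over all genes cannot exclude a pairing that touches part of them. With the replicate number as a block Myh9 was at 0.12 (edgeR adjusted p = 0.00798), Myh10 at -0.16 (0.00297), and 3709 genes were called. Among the genes of the lists whose alternatives were computed, the block ended 1 call, that of Flna, filamin A (edgeR adjusted p = 0.0658). Depth limits the 8 members below the filter, where 3 counts are 0.136 to 0.203 CPM in a library.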

Other observations

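Unconventional myosins, motors that carry cargo or link membranes to actin and do not form thick filaments, were also measured. Of 24 genes 15 were tested, of which 1 rose and 4 fell, 5 of 15 where 31.7% of all tested genes were called. Their median log2 fold change was -0.01, as over all tested genes, so neither value sets the family apart. Myo1d, a membrane-bound class I motor, rose from 22.6 ± 0.441 to 32.5 ± 1.37 CPM (SD, n = 3 per group), a log2 fold change of 0.53 (standard error 0.07, edgeR adjusted p = 6.95e-07). Its relatives went the other way. Myo1e had 132 ± 2.00 CPM under OGD/R alone and 113 ± 5.90 CPM under phillyrin, and Myo1c 464 ± 15.3 and 415 ± 11.8 CPM (SD, n = 3 per group, edgeR adjusted p = 0.000107 and 0.000553). Myo18a, which co-assembles with non-muscle myosin II filaments, fell from 144 ± 2.97 to 127 ± 7.53 CPM (SD, n = 3 each, edgeR adjusted p = 0.00146), and Myo19, a mitochondrial motor, had a log2 fold change of -0.27 (SE 0.07). Myo10, the filopodial motor, had 44.7 FPKM in OGD/R, above Myh10 at 23.3 FPKM, and was not called (edgeR adjusted p = 0.229).

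The OGD/R and phillyrin replicates 1 hold the same count of Myh9, 48897. The libraries are not copies of each other: their totals are 18179405 and 17259784, and a chi-square comparison of their counts over tested genes gave 14.6 per degree of freedom, where replicate pairs within a group gave 2.04 to 5.38.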
